A study of Mus musculus with 9 samples.

Results

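The genes described here form 1 group of 37, out of 45808 gene symbols with counts: the filamins, actins, tropomyosins, calponins, non-muscle myosins, α-actinins and troponins, their thin filament partners, and the transcription factor Srf with its cofactors. They were taken by symbol, as a list of genes of the actin cytoskeleton and of contraction, and each of the 37 had a row of counts. RNA was sequenced from mK4 cells, a mouse line of induced kidney mesenchyme, in 9 libraries. Clone F7 (n = 4) was made with CRISPR/Cas and carries a homozygous frameshift in Foxd2, which encodes a forkhead transcription factor. The control cells (n = 5) also went through CRISPR/Cas targeting, but with a guide that targets no gene, and their Foxd2 is wild type per the labels. Both groups were grown with 10% fetal bovine serum, which itself stimulates Srf-dependent transcription. Only 1 mutant clone was sequenced, so the mutation and the clone cannot be told apart. Whether replicates were grown as separate cultures is not in the labels, and if they were not, each p-value reflects technical spread alone.

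Actin filaments are polymers that give a cell its shape and let it pull. Filamins and α-actinins join filaments to each other, tropomyosins lie along them and decide which proteins may bind, and myosin motors slide them. Free actin monomers hold the cofactors Mkl1 and Mkl2 (Mrtfa and Mrtfb in newer nomenclature) in the cytoplasm, and once actin polymerises these enter the nucleus and switch on target genes together with Srf, many of which encode the filament proteins themselves.

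Foxd2 itself had 18.8, 23.3, 16.5 and 14.5 counts scaled to the library total (CPM) in the F7 libraries, against 4.28, 3.19, 4.07, 3.99 and 3.12 CPM in the control libraries, so its RNA was higher in the mutant clone. A gene total cannot reveal a frameshift. Library totals ran between 6041556 and 14024859 counts in F7, against 10526591 to 16032175 in control. F7 replicates 3 and 4 were the shallowest libraries, and the column headers of these 2 name the cells mk3 where the sample titles read mK4. On the first principal component, the controls closest to F7 were replicates 3 and 5. Of 10 markers of the mK4 line, 7 were expressed at testable levels, Pax2 among them, whereas Wt1 and Six2 had no reads. The 10 markers summed to 435 to 496 CPM in F7, against 895 to 1097 CPM in control, and the part of that shift in the results was not tested. Results are therefore also given with parts of each group.

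Of the 37 genes, 28 had enough reads to be tested, and 11 of these were higher in F7 and 1, Tpm1, was lower, at an adjusted p under 0.05 in edgeR's quasi-likelihood test. This is 42.9% of the 28, beside 35.3% of the 14730 genes tested in the whole table. By direction, 11 of 28 higher stands beside a background of 17.4% of all tested genes called higher, and 1 of 28 lower beside 17.9% called lower. The median log2 fold change of the 28 was 0.22, against -0.01 for all tested genes, and 21 of the 28 were above 0 (75.0%, beside 49.2% of all tested genes). For 10 of the 28 each F7 library lay above each control library, and for 1 each lay below, where 13.9% and 13.7% of all tested genes did so. Most differences were small. Only 4 of the 28 were called with a log2 fold change of 0.5 or more in either direction, beside 17.0% of all tested genes. They were Flnc, Tnnt2, Tagln2 and Pdlim7. At a log2 fold change of 1 or more it was 2 of the 28, beside 7.15% of all tested genes. In bulk RNA a change per cell and a change in the share of cells that express a gene cannot be told apart.

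**Figure D1:**
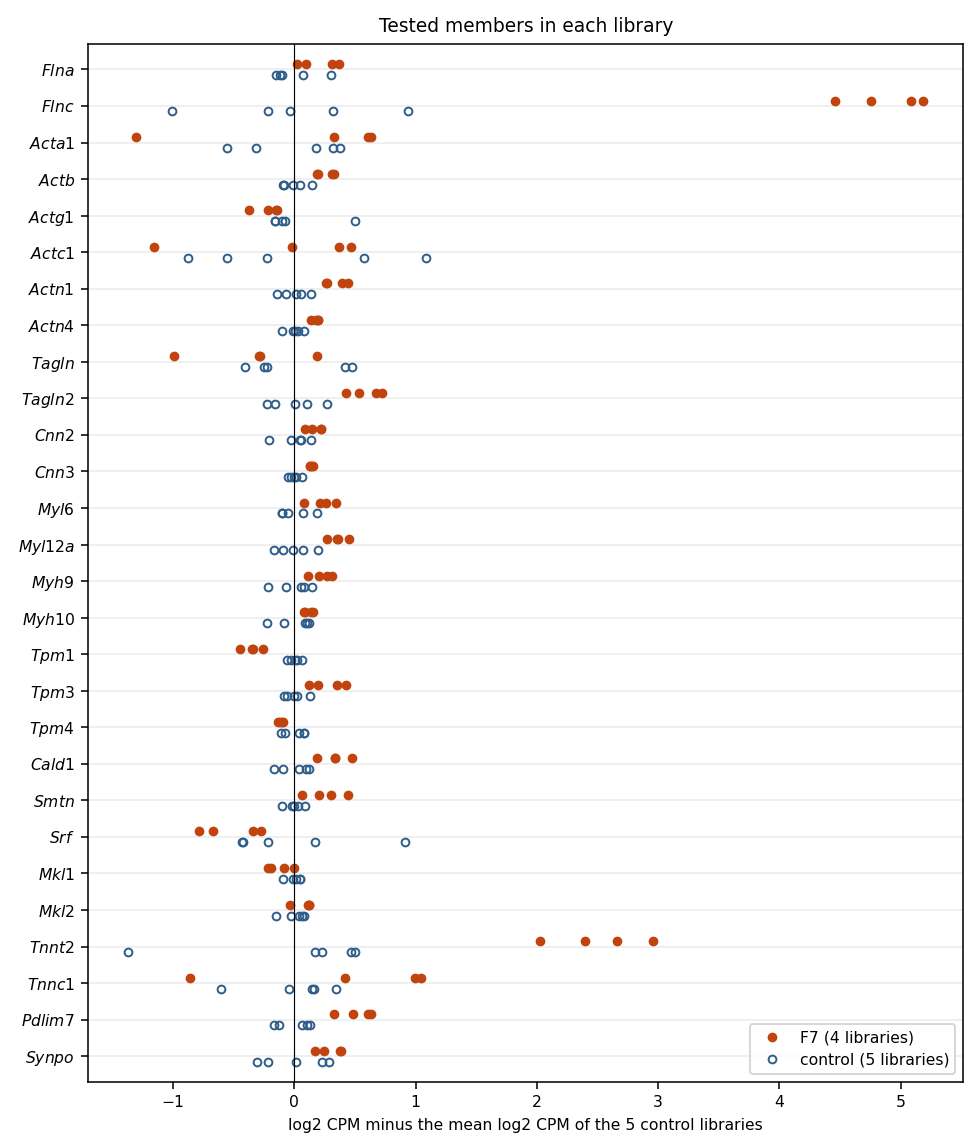
Level of the 28 tested genes in each library, as log2 CPM minus the mean log2 CPM of the 5 control libraries (F7, filled; control, open). The F7 points of Flnc lie 4 to 6 log2 units to the right of 0 and those of Tnnt2 2 to 3, while most other genes stay within 1 unit of 0.

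The largest difference was in Flnc, which encodes filamin C, the filamin of skeletal and heart muscle that crosslinks actin at the Z-disc and at the membrane. Flnc (ENSMUSG00000068699.12, GRCm38 chromosome 6, 29433256 to 29461883, plus strand) had 121, 130.1, 96.3 and 78.3 CPM in F7 libraries 1 to 4, against 3.08, 1.78, 3.49, 4.46 and 6.83 CPM in control libraries 1 to 5. The groups were far apart, and within F7 the 2 shallow libraries were the lower ones. Its mean was 107 ± 23.7 CPM in F7 (SD, n = 4) and 3.92 ± 1.89 CPM in control (SD, n = 5), a 27.8-fold difference and a log2 fold change of 4.80 (SE 0.28, adjusted p = 2.11e-06 in edgeR). Only 22 tested genes had a higher log2 fold change in the whole table, since Flnc ranked 23 of 14730. The 50 tested genes nearest to it on the chromosome had a median log2 fold change of -0.22, of the opposite sign. Fitted with F7 replicates 1 and 2 alone the log2 fold change was 5.04, and with replicates 3 and 4 alone it was 4.50.

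Flna encodes filamin A, the main filamin of non-muscle cells. It had 1222, 1268, 999 and 1054 CPM in F7 libraries 1 to 4, against 919, 907, 887, 1032 and 1211 CPM in control libraries 1 to 5. The groups overlapped (log2 fold change 0.20, SE 0.11, adjusted p = 0.165 in edgeR). Control replicate 5 was above 2 of the F7 libraries, and control replicate 4 was above F7 replicate 3. Without control replicate 5 Flna passed the test (log2 fold change 0.27, adjusted p = 0.0377 in edgeR). Per kilobase of transcript, Flnc averaged 11.8 CPM in F7 and 0.434 CPM in control, beside 134 and 117 CPM per kilobase for Flna in F7 and control. Of the summed per-kilobase level of Flna and Flnc, Flnc made up 6.50 to 8.76% in the F7 libraries, against 0.183 to 0.525% in the control libraries. Flna was the more abundant of these 2 transcripts in all 9 libraries. Neither gene shares a run of 50 bases with a transcript of another gene, so reads of one are not readily taken for the other.

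The RefSeq promoter window of Flnc that starts from the same first base as the gene model holds 1 MCAT element, the site to which TEAD factors bind, and no CArG box, the site to which Srf binds. It is shown because Flnc is the gene that differed most, with the MCAT element in capitals (GRCm38.p6, chr6:29433006-29433255, plus strand, the 250 bases before the start).
Flnc: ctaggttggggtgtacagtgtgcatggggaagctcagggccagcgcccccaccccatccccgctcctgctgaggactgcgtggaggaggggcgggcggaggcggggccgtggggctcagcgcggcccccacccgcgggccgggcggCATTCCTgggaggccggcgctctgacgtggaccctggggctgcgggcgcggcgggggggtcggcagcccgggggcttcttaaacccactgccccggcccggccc
The MCAT search took CATTCCT and CATTCCC and their reverse complements AGGAATG and GGGAATG, and the CArG search took the SRF consensus on both strands, in windows of 250 bases before to 50 after each RefSeq start. An MCAT element was found in 9.62% and a CArG box in 1.63% of 32851 such windows, and in 4 windows the 2 motifs overlapped. A match describes letters in a window and does not show that a factor binds there.

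Among the actins, Actb encodes cytoplasmic β-actin and was by far the most abundant of the 37 transcripts per kilobase, at 5340.0 CPM in F7 and 4481 CPM in control. Its CPM was 10741, 10632, 9792 and 9846 in F7 libraries 1 to 4, against 8043, 8876, 8509.5, 8069 and 9521 in control libraries 1 to 5. Each F7 library was thus above each control library, but the difference missed the threshold (log2 fold change 0.25, SE 0.10, adjusted p = 0.0535 in edgeR). It passed in 8 of 24 alternative fits, 2 of them without control replicate 3 (adjusted p = 0.0458 in edgeR) or without control replicate 5 (adjusted p = 0.0314 in edgeR). Because Actb is a common normaliser in qPCR, its share of each library is of use: 0.964 to 1.05% of all counts in F7 and 0.825 to 0.942% in control.

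Actg1 encodes cytoplasmic γ-actin. It had 239, 238, 226 and 203 CPM in F7 libraries 1 to 4, against 236, 374, 237, 245 and 249.8 CPM in control libraries 1 to 5. Control replicate 2 stood well above all others, and the groups overlapped (log2 fold change -0.24, SE 0.13, adjusted p = 0.167 in edgeR). Relative to Actb the 2 groups did separate: the log2 ratio of Actg1 over Actb per kilobase was -5.62 to -5.46 in F7, against -5.28 to -4.59 in control. Actg1 counts carry a limit of their own, since 37.4% of the 50-base stretches of its transcripts also occur in transcripts of other genes, against 9.12% for Actb. The Actg1 window holds 1 CArG box, shown in capitals because Actg1 is a textbook Srf target (GRCm38.p6, chr11:120348496-120348745, minus strand).
Actg1: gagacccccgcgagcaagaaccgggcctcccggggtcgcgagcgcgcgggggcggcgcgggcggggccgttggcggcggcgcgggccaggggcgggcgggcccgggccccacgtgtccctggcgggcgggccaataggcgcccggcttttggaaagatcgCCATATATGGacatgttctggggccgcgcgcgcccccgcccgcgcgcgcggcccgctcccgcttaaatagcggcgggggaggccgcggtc

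The 4 muscle actins were scarce. Acta1, the skeletal muscle actin, averaged 2.46 ± 1.11 CPM in F7 and 2.14 ± 0.572 CPM in control (SD, n = 4 and 5; log2 fold change 0.26, adjusted p = 0.536 in edgeR). Actc1, the cardiac actin, averaged 0.700 ± 0.287 CPM in F7 and 0.775 ± 0.449 CPM in control (log2 fold change -0.09, adjusted p = 0.888 in edgeR). The smooth muscle actins Acta2 and Actg2 were below the test's filter, with 4 and 3 reads in all F7 libraries, against 6 and 9 reads in all control libraries. No actin gene passed the test.

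**Figure D2:**
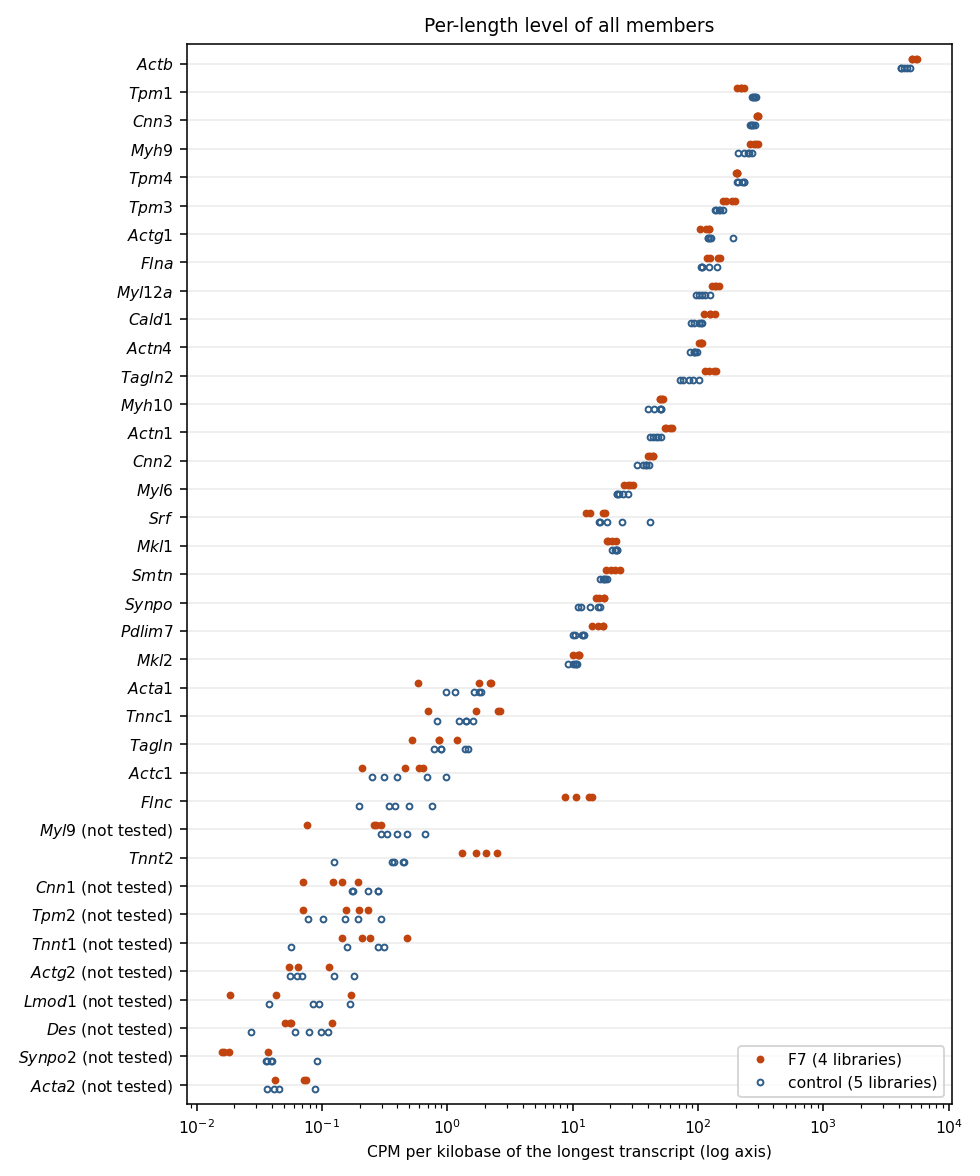
Level of each of the 37 genes per kilobase of its longest annotated transcript, in CPM on a log axis, ordered by the control mean (F7, filled; control, open; libraries with no read are not drawn). Actb lies more than 1 log10 unit above all others, and Flnc and Tnnt2 are the only tested genes whose groups are parted by a wide gap.

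Both α-actinins, which bundle actin filaments, were higher in F7. Actn1 averaged 217 ± 13.9 CPM in F7 (SD, n = 4) and 171 ± 12.8 CPM in control (SD, n = 5), with a log2 fold change of 0.34 (SE 0.07, adjusted p = 0.00229 in edgeR). Actn4, whose product podocytes depend on in the kidney, averaged 408 ± 7.68 CPM in F7 and 362 ± 16.5 CPM in control (log2 fold change 0.18, SE 0.06, adjusted p = 0.0355 in edgeR). For both, each F7 library exceeded each control library. The Actn4 difference is small, and its call was lost in 13 of 24 alternative fits. It was lost on leaving out control replicate 1, 2 or 4 or F7 replicate 1, 2 or 3, at adjusted p between 0.0697 and 0.0944 in edgeR.

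In the calponin family, Tagln2 differed most. Transgelin-2 is a small actin-binding protein of non-muscle cells. Tagln2 (GRCm38 chromosome 1, 172500047 to 172507380, plus strand) had 214, 222, 194 and 181 CPM in F7 libraries 1 to 4, against 115, 121, 145, 135 and 162 CPM in control libraries 1 to 5. The groups did not overlap, and the control libraries nearest to F7 were replicates 5 and 3, the same pair as on the first principal component. The log2 fold change was 0.59 (SE 0.10, adjusted p = 0.000559 in edgeR). Cnn3 and Cnn2, the calponins of non-muscle cells, did not pass: Cnn3 averaged 662 ± 6.40 CPM in F7 and 601 ± 18.4 CPM in control (log2 fold change 0.14, adjusted p = 0.0878 in edgeR), with no overlap between groups. Cnn2 averaged 103 ± 4.38 CPM in F7 and 92.2 ± 8.0 CPM in control (log2 fold change 0.16, adjusted p = 0.0853 in edgeR). Tagln, the smooth muscle transgelin, stayed at 1.37 ± 0.434 CPM in F7 and 1.73 ± 0.503 CPM in control (log2 fold change -0.27, adjusted p = 0.502 in edgeR), and 58.3% of its 50-base stretches recur in other genes. Cnn1, the smooth muscle calponin, was not tested, with 12 reads in F7 and 36 in control.

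Of the myosin genes, the light chains Myl12a and Myl6 were called and the heavy chains were not. Myl12a encodes a regulatory light chain of non-muscle myosin, the subunit that is phosphorylated to switch the motor on. It averaged 269 ± 13.8 CPM in F7 (SD, n = 4) and 211 ± 20.7 CPM in control (SD, n = 5), with a log2 fold change of 0.35 (SE 0.08, adjusted p = 0.00303 in edgeR) and no overlap between groups. Myl6, the essential light chain, averaged 85.9 ± 6.43 CPM in F7 and 73.7 ± 6.53 CPM in control (log2 fold change 0.22, SE 0.08, adjusted p = 0.0368 in edgeR), and its groups overlapped. Its call was lost in 11 of 24 alternative fits, among them those without control replicate 1, 2 or 4 or F7 replicate 1, 3 or 4, at adjusted p between 0.0612 and 0.131 in edgeR. Myh9, the heavy chain of non-muscle myosin IIA, averaged 2111 ± 127 CPM in F7 and 1814 ± 175 CPM in control (log2 fold change 0.22, adjusted p = 0.0723 in edgeR). It passed without control replicate 5 (adjusted p = 0.0449 in edgeR). Myh10, the heavy chain of non-muscle myosin IIB, averaged 397 ± 10.0 CPM in F7 and 368 ± 37.4 CPM in control (log2 fold change 0.11, adjusted p = 0.292 in edgeR). Myl9, the regulatory light chain of smooth muscle, was not tested: its 9 reads in F7 and 32 in control gave 0.0857 to 0.336 CPM in F7, against 0.337 to 0.747 CPM in control.

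The tropomyosins moved in opposite directions. Tpm1, which encodes both muscle and non-muscle tropomyosin isoforms, had 676, 637, 593 and 637 CPM in F7 libraries 1 to 4, against 792, 814, 775, 847 and 821 CPM in control libraries 1 to 5. It was the only called gene of the 37 that fell, and each F7 library was below each control library (log2 fold change -0.35, SE 0.07, adjusted p = 0.00142 in edgeR). The call held in 23 of 24 alternative fits and was lost when the fold was tested against 1.2. Tpm3, a tropomyosin of slow muscle and of non-muscle cells, averaged 422 ± 40.2 CPM in F7 and 348 ± 20.1 CPM in control and rose (log2 fold change 0.28, SE 0.08, adjusted p = 0.0117 in edgeR). Its groups met at 379 CPM, the level of F7 replicate 3 and of control replicate 5, and without F7 replicate 1 the call was lost (adjusted p = 0.0515 in edgeR). Tpm4, the non-muscle tropomyosin, averaged 434 ± 5.91 CPM in F7 and 469 ± 29.4 CPM in control and was not called (log2 fold change -0.11, adjusted p = 0.189 in edgeR). Its 50 nearest tested neighbours on chromosome 8 had a median of -0.41. As a share of the summed per-kilobase level of the tropomyosins, Tpm1 held 36.1 to 37% in F7, against 41.5 to 45.0% in control, and Tpm3 held 28.1 to 30.9% in F7, against 22.3 to 23.6% in control. These shares rest on the longest transcript of each gene, and which isoforms were present was not measured. Tpm2, a muscle tropomyosin, was not tested, with 15 reads in F7 and 23 in control.

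The thin filament binders Cald1 and Smtn passed the test. Cald1 encodes caldesmon, which restrains myosin on actin. It averaged 595 ± 48.3 CPM in F7 (SD, n = 4) and 473 ± 40.0 CPM in control (SD, n = 5), with a log2 fold change of 0.33 (SE 0.08, adjusted p = 0.00667 in edgeR) and no overlap. Smtn encodes smoothelin, known from smooth muscle. It averaged 71.6 ± 7.85 CPM in F7 and 60.0 ± 2.83 CPM in control (log2 fold change 0.26, SE 0.08, adjusted p = 0.0161 in edgeR), and F7 replicate 3 lay below control replicate 5. Without F7 replicate 1 the Smtn call was lost (adjusted p = 0.0744 in edgeR). Lmod1, the leiomodin of smooth muscle that starts new filaments, had 7 reads in F7 and 21 in control. Des, the muscle intermediate filament desmin, had 9 reads in F7 and 15 in control, and neither was tested.

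Tnnt2 encodes cardiac troponin T, which ties the troponin complex to tropomyosin. Tnnt2 (GRCm38 chromosome 1, 135836354 to 135852260, plus strand) had 8.34, 6.77, 4.37 and 5.66 CPM in F7 libraries 1 to 4, against 1.21, 1.26, 0.415, 1.49 and 1.52 CPM in control libraries 1 to 5. All F7 libraries were above all control libraries, and control replicate 3 stood below the other controls. The log2 fold change was 2.45 (SE 0.28, adjusted p = 2.1e-05 in edgeR), or 5.45-fold, on a base of 256 reads in F7 and 76 in control. Although its fold was large, Tnnt2 remained a scarce transcript at 1.89 CPM per kilobase in F7 and 0.353 in control, or 5.24 and 0.981 with the longest coding transcript of the basic annotation. The other subunits were not called. Tnnc1, the slow and cardiac troponin C, averaged 1.36 ± 0.645 CPM in F7 and 0.937 ± 0.210 CPM in control (log2 fold change 0.66, SE 0.34, adjusted p = 0.141 in edgeR). F7 replicate 3 had the lowest Tnnc1 level of all 9 libraries, and the difference was called without that library (log2 fold change 0.87, adjusted p = 0.0457 in edgeR) and with F7 replicates 1 and 2 alone (log2 fold change 1.01, adjusted p = 0.0428 in edgeR). With F7 replicates 3 and 4 alone its sign turned (log2 fold change -0.07, adjusted p = 0.939 in edgeR). Tnnt1, the slow skeletal troponin T, had 10 reads in F7 and 11 in control. The first Tnnt2 window holds 1 MCAT element, in capitals below, a motif known from the chicken cardiac troponin T promoter (GRCm38.p6, chr1:135836084-135836333, plus strand).
Tnnt2: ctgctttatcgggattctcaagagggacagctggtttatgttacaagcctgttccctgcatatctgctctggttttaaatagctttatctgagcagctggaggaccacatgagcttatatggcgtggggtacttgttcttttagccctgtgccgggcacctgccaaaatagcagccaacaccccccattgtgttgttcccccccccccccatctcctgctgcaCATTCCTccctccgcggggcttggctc

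Most genes that define muscle cells were at or near 0 beside these changes. Summed over the F7 and over the control libraries, Myod1 had 2 and 0 reads, Myog 3 and 0, Myf5 and Myh6 no reads at all, Myh7 0 and 2, and Myocd 0 and 1. Nkx2-5, a transcription factor gene of the heart, was the exception among the cardiac markers, with 14, 12, 5 and 3 reads in F7 libraries 1 to 4, against 0, 0, 1, 1 and 1 in control libraries 1 to 5. Each F7 library held more than each control, at counts too low for the edgeR test. In the authors' deposited comparison the log2 fold change of Nkx2-5 was 4.02 (adjusted p = 0.000463 in DESeq2). The part of Nkx2-5 in the Tnnt2 result was not tested. Myh11, the myosin of mature smooth muscle, had 16 reads in F7 and 43 in control. The summed level of 8 skeletal muscle markers was 1.85 to 4.03 CPM in F7, against 2.32 to 3.62 CPM in control, and that of 6 cardiac markers was 1.07 to 2.06 CPM in F7, against 0.370 to 1.51 CPM in control. The 8 smooth muscle markers summed to 66.9 to 83.9 CPM in F7, against 93.9 to 114 CPM in control, and nearly all of this was Smtn and Mylk. Among 6 pericyte and fibroblast markers, Pdgfrb alone was called, at 89.9 CPM in F7 and 37.9 CPM in control (log2 fold change 1.24). Rgs5 had no reads, and Pdgfra and Cspg4 had at most 22 in a group. The part of Pdgfrb-expressing cells in these results was not tested.

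Pdlim7 encodes a PDZ and LIM domain protein (enigma) that localises to actin filaments. It had 62.0, 62.7, 56.6 and 50.8 CPM in F7 libraries 1 to 4, against 37.1, 36.1, 42.5, 43.6 and 44.4 CPM in control libraries 1 to 5. The groups did not overlap (log2 fold change 0.52, SE 0.09, adjusted p = 0.000511 in edgeR). Synpo encodes synaptopodin, an actin-bundling protein of podocytes and neurons. It averaged 86.5 ± 6.23 CPM in F7 and 71.3 ± 12.8 CPM in control and missed the threshold (log2 fold change 0.27, adjusted p = 0.0825 in edgeR). Control replicates 1 and 2 were at the F7 level, and without control replicate 1 Synpo was called (adjusted p = 0.0288 in edgeR), as it was against control replicates 3, 4 and 5 alone (log2 fold change 0.46, adjusted p = 0.00109 in edgeR). Synpo2 was not tested, with 8 reads in F7 and 28 in control.

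**Figure D3:**
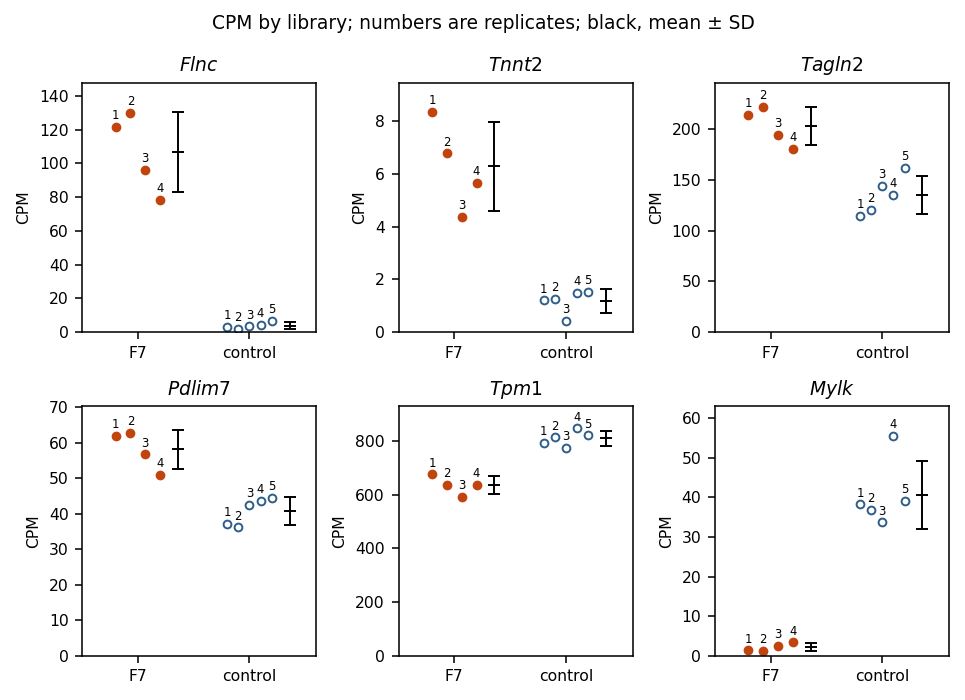
CPM in each library, numbered by replicate, for Flnc, Tnnt2, Tagln2, Pdlim7, Tpm1 and Mylk, with F7 left of control and the mean ± SD in black. F7 lies wholly above control for the first 4 genes and wholly below it for Tpm1 and Mylk.

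The transcription factor Srf and its cofactors were not called. Srf had 47.7, 45.4, 36.3 and 33.5 CPM in F7 libraries 1 to 4, against 64.8, 108, 43.0, 49.6 and 42.7 CPM in control libraries 1 to 5. The controls spread widely, with replicate 2 highest, and the groups overlapped (log2 fold change -0.59, SE 0.30, adjusted p = 0.163 in edgeR). Mkl1 had 91.4, 96.8, 84.9 and 83.2 CPM in F7 libraries 1 to 4, against 100.1, 90.9, 95.9, 97.7 and 99.7 CPM in control libraries 1 to 5 (log2 fold change -0.12, SE 0.06, adjusted p = 0.154 in edgeR). Mkl2 had 83.3, 92.1, 92.8 and 92.8 CPM in F7 libraries 1 to 4, against 89.1, 87.5, 76.8, 83.8 and 90.1 CPM in control libraries 1 to 5 (log2 fold change 0.08, SE 0.06, adjusted p = 0.377 in edgeR). Both cofactors overlapped between the groups. Their RNA level says nothing about where the proteins are in the cell. Srf is among its own targets, and its window holds 2 CArG boxes, in capitals (GRCm38.p6, chr17:46556163-46556412, minus strand).
Srf: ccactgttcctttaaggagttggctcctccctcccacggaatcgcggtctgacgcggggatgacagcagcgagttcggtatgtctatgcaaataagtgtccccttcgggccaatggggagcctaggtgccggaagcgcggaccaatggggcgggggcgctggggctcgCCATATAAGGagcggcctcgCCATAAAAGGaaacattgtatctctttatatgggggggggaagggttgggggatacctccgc

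Fos, Junb and Egr1 are immediate early genes that Srf controls together with Elk family cofactors and that serum switches on quickly. They are named here after their values were seen. Fos had 85.2, 84.7, 18.7 and 10.7 CPM in F7 libraries 1 to 4, against 298, 413, 152, 369 and 290.4 CPM in control libraries 1 to 5, and fell (log2 fold change -2.55, SE 0.64, adjusted p = 0.0191 in edgeR). Junb fell too, with no overlap (221 ± 123 CPM in F7 and 621 ± 173 CPM in control, log2 fold change -1.48, adjusted p = 0.0281 in edgeR). Egr1 overlapped and was not called, at 748, 765, 171 and 119 CPM in F7, against 1585, 2113, 553, 1180.3 and 894 CPM in control (log2 fold change -1.48, adjusted p = 0.135 in edgeR). It was called in 5 of 24 alternative fits, one of them with F7 replicates 3 and 4 alone (log2 fold change -3.12, adjusted p = 0.0149 in edgeR). F7 replicates 3 and 4 were the lowest libraries for Srf, Fos, Junb and Egr1, and control replicate 2 was the highest for these 4 and for Actg1. The Fos and Junb calls were lost against control replicates 3, 4 and 5 alone, at adjusted p = 0.088 for Fos and 0.147 for Junb in edgeR. The Junb call was also lost without control replicate 1, control replicate 2 or F7 replicate 3, at adjusted p between 0.0566 and 0.0629 in edgeR. What set these libraries apart was not tested.

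**Figure D4:**
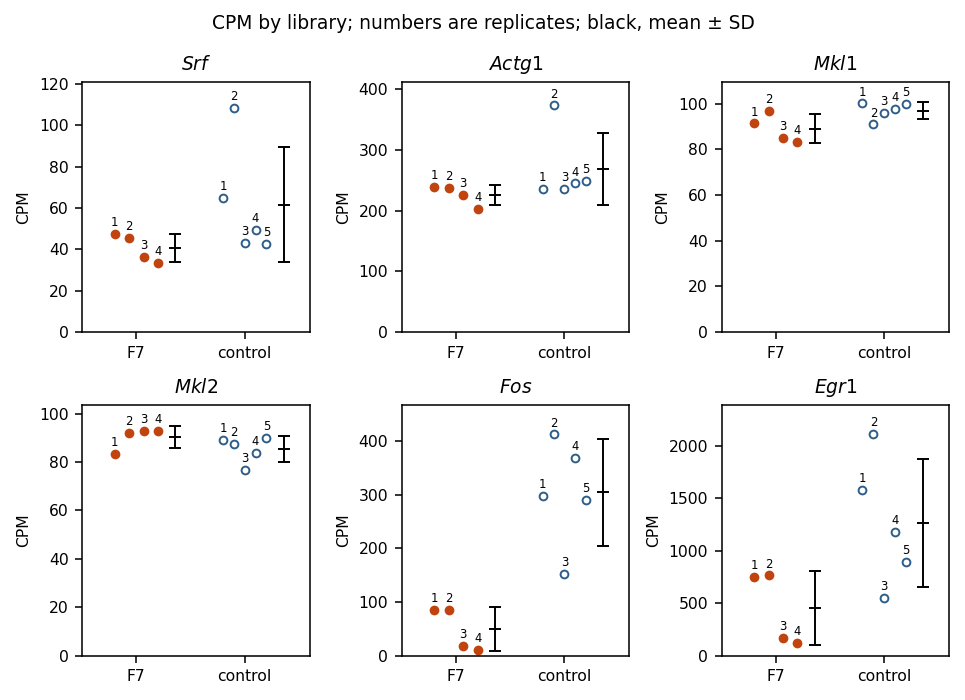
CPM in each library, numbered by replicate, for Srf, Actg1, Mkl1, Mkl2, Fos and Egr1, with F7 left of control and the mean ± SD in black. Control replicate 2 is the highest point for Srf, Actg1, Fos and Egr1, and F7 replicates 3 and 4 are the lowest for Srf, Fos and Egr1.

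Over the genes of the same pathways outside the 37, 118 were listed, 93 were tested, 27 were higher and 17 lower in F7, which is 47.3% of those tested beside the 35.3% of all genes. By direction, 17.4% of all tested genes were called higher and 17.9% lower. The median log2 fold change of the 93 pathway genes was 0.09. Among close relatives of the 37, 10 of 28 were tested, 2 were higher and 4 lower, beside 17.4% and 17.9% of all tested genes. Myl12b, the regulatory light chain nearest to Myl12a, also rose (113 ± 3.45 CPM in F7, 82.2 ± 2.32 CPM in control, log2 fold change 0.46, adjusted p = 2.31e-05 in edgeR). Of the 50-base stretches of Myl12a, 21.1% occur in other genes. Of these 718 shared stretches, 551 occur in Myl12b, so reads of the 2 genes may not be fully told apart. Synm, an intermediate filament protein, fell (log2 fold change -0.83, adjusted p = 0.000519 in edgeR), as did the myosin genes Myl6b (-0.55) and Myh14 (-0.61) and Nexn (-0.98), whose product nexilin binds F-actin. The Myh14 and Nexn calls were each lost in 9 of 24 alternative fits. The Myh14 call was lost without control replicate 1, F7 replicate 2 or F7 replicate 3 (adjusted p 0.0594 to 0.118 in edgeR), and that of Nexn without control replicate 1 or 4 or F7 replicate 1 or 4 (0.0522 to 0.0961).

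Of 57 genes of actin assembly and its regulation, 55 were tested, 17 were higher and 8 lower, beside 17.4% and 17.9% of all tested genes. The outstanding value was that of Mylk, which encodes myosin light chain kinase, the enzyme that phosphorylates the regulatory light chains. Mylk had 1.32, 1.29, 2.52 and 3.36 CPM in F7 libraries 1 to 4, against 38.2, 36.9, 33.7, 55.6 and 39.1 CPM in control libraries 1 to 5. Its log2 fold change was -4.42 (SE 0.25, adjusted p = 2.24e-07 in edgeR). Of the light chains named above, the regulatory Myl12a and Myl12b had log2 fold changes of 0.35 and 0.46. The regulatory Myl9 was not tested, with 9 reads in F7 and 32 in control. The essential light chain Myl6 had 0.22, whereas Myl6b had -0.55. Among genes whose products bind actin monomers, Tmsb10 (thymosin β10) averaged 549 ± 39.3 CPM in F7 and 314 ± 35.2 CPM in control (log2 fold change 0.81, adjusted p = 1.1e-05 in edgeR), and Pfn1 (profilin 1) averaged 395 ± 33.8 CPM in F7 and 289 ± 17.0 CPM in control (log2 fold change 0.45, adjusted p = 0.000373 in edgeR). Tmsb4x (thymosin β4) was lower, at 10.6 ± 0.834 CPM in F7 and 16.9 ± 1.14 CPM in control (log2 fold change -0.67, adjusted p = 0.000146 in edgeR). Of the same list, the formin gene Daam1 (log2 fold change 0.82, adjusted p = 0.000206 in edgeR) and the pointed-end capping gene Tmod3 (log2 fold change 0.48, adjusted p = 8.89e-05 in edgeR) also rose, while 30 of its 55 tested genes were not called.

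Of 33 further Srf cofactor and target genes, 28 were tested, 8 were higher and 5 lower, beside 17.4% and 17.9% of all tested genes. Fhl2, a LIM-domain cofactor that binds Srf, averaged 60.1 ± 4.66 CPM in F7 and 32.8 ± 2.19 CPM in control (log2 fold change 0.88, adjusted p = 1.45e-06 in edgeR), and its relative Fhl3 rose by 0.44. Elk3, an Ets-family partner of Srf, averaged 73.7 ± 3.24 CPM in F7 and 44.3 ± 3.67 CPM in control (log2 fold change 0.74, adjusted p = 4.82e-06 in edgeR). Itgb1, which encodes the integrin β1 chain that links the matrix to actin, fell to 824 ± 45.6 CPM in F7, against 1019 ± 33.3 CPM in control (log2 fold change -0.31, adjusted p = 0.00391 in edgeR), and the 27 tested genes nearest to it on chromosome 8 had a median of -0.30. Filip1l (-0.38) and Tuft1 (-0.90) were lower too.

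A RefSeq promoter window was at hand for 33 of the 37 genes. CArG boxes were found in 7 of them, namely Acta1, Actg1, Actc1, Cnn2, Myl9, Myl6 and Srf, and MCAT elements in 8, namely Flnc, Acta1, Acta2, Tagln2, Tpm1, Cald1, Tnnt2 and Tnnc1. Counted per gene, a CArG box occurs in 488 and an MCAT element in 2969 of the 27025 genes with a window. Of the 11 genes called higher, 1 had a CArG box and 4 an MCAT element, and Tpm1, the gene called lower, had an MCAT element. Of the 13 with a window that were tested and not called, 5 had a CArG box and 2 an MCAT element. Of the 8 with a window that were not tested, 1 had a CArG box and 1 an MCAT element. Of the 3 most strongly raised genes with an MCAT element, the sites are set side by side with 10 bases on each side and the element in capitals, together with the site of Tpm1.
Flnc (chr6:29433142-29433168, plus strand): ggccgggcggCATTCCTgggaggccgg
Tnnt2 (chr1:135836297-135836323, plus strand): tcctgctgcaCATTCCTccctccgcgg
Tagln2 (chr1:172500118-172500144, plus strand): ctttacggctCATTCCTgcctactgac
Tpm1 (chr9:67049254-67049280, minus strand): ggctgtcctaAGGAATGcggtcgcccc
The element reads CATTCCT along the gene's strand in Flnc, Tnnt2 and Tagln2, and is its reverse complement in Tpm1. In Cald1, called higher and not set out above, it reads GGGAATG, which is also a reverse complement form. The factors that bind the motif were not measured, and the part of the motif in the results was not tested.

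The counts varied with the libraries used. With F7 replicates 1 and 2 alone, 10 of the 28 tested genes were higher and 1 lower, beside 13.0% and 13.7% of all tested genes. With the shallow replicates 3 and 4 alone, 4 of the 28 were higher and 1 lower, where the background also fell to 6.40% higher and 7.60% lower. Flnc, Tnnt2, Tagln2 and Pdlim7, and the fall of Tpm1, were called with either pair. Leaving out F7 replicate 1 lowered the count of higher genes to 7 of the 28, beside 11.4% of all tested genes. Against control replicates 1, 2 and 4 alone, 14 of the 28 were higher, beside 22.2% of all tested genes. Against control replicates 3, 4 and 5 alone 9 of the 28 were, beside 12.1%. Of the small differences, Actn1 was 0.42 with the first F7 pair and 0.27 with the second, Cald1 0.41 and 0.26, Tpm3 0.39 and 0.17, and Smtn 0.38 and 0.14, all on the log2 scale.

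**Figure D5:**
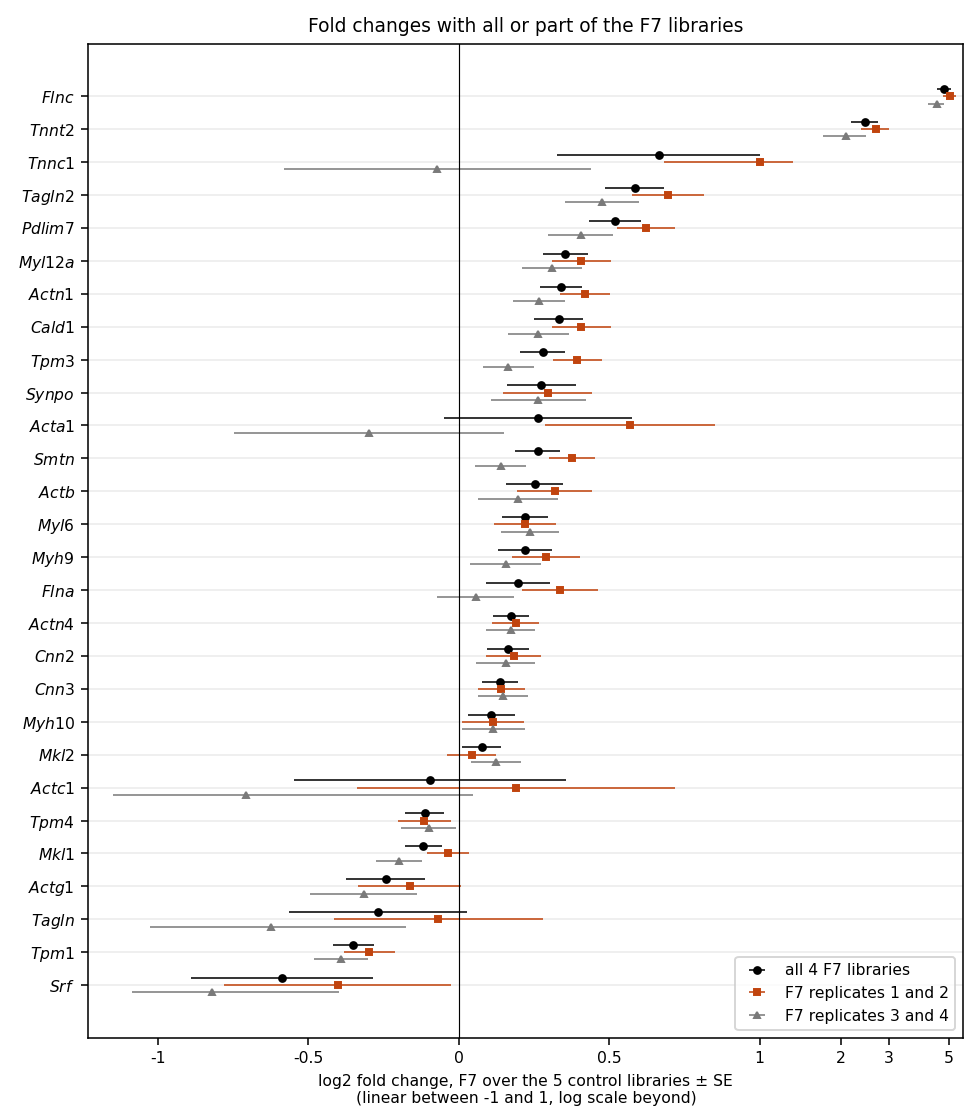
Log2 fold change over the 5 control libraries, with its SE, for each of the 28 tested genes, fitted with all 4 F7 libraries (black), with F7 replicates 1 and 2 (squares) and with F7 replicates 3 and 4 (triangles). The axis is linear between -1 and 1 and logarithmic beyond. Flnc and Tnnt2 stay above 2 in each fit, while Tnnc1, Acta1 and Actc1 cross 0 between the 2 pairs.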

How the data were processed

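RNA from 4 libraries of clone F7 and 5 control libraries was compared, grouped by the sample titles. The authors deposited raw counts of reads per gene for 45808 symbols, which were the input of each test. The submitters' processing notes name mm10, featureCounts, R 3.4.3 and DESeq2 1.18.1. Not given in the sources used here are the aligner, the annotation and whether counting used strand. The authors' normalized table is a signal, counts divided by a size factor, and served only as a check. The authors' deposited comparison holds log2 fold changes and p-values, used as an alternative. Each per-library table has 1 further F7 column that matches no sample and was left out.

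Counts were tested with edgeR 4.0.16 in R 4.3.3 (quasi-likelihood, robust, TMM factors, group as the only term). Genes were kept by filterByExpr (minimum count 10, total 15), which left 14730. P-values were Benjamini-Hochberg adjusted over all of them, and an adjusted p under 0.05 is a call. The SE is the log2 fold change over the square root of F. CPM are scaled by library total and TMM factor. Levels per kilobase use the longest GENCODE vM21 transcript, matched by symbol for 96.6% of tested genes. Genes that share reads were sought as 50-base stretches present in transcripts of another gene. Besides the shares given with the genes, it was 27% for Tmsb10, 24% for Cnn3 and 23.2% for Tpm3. Promoter windows are RefSeq's for GRCm38.p6. In a simulation on 14525 genes with the depths of these libraries, the calls recovered 8.16% of 1.2-fold changes, 66% of 1.5-fold, 79.6% of 2-fold and 98% of 4-fold changes, and took in 0.0838% of unchanged genes. Only 200 genes were changed in the simulation, whereas 35.3% of all tested genes were called in the data. Adjustment over so few changed genes is stricter. The share of differences near 1.2-fold, the size of many called here, that was missed in the data therefore cannot be read from it.

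The 37 genes, the pathway and marker lists and the tests were chosen with earlier results of these data known. Library values are printed for called genes whose log2 fold change is at least 0.5 in size, both filamins, Srf, Mkl1, Mkl2, Actb, Actg1 and Tpm1, and up to 6 genes per pathway list with the smallest adjusted p are named; other exceptions are stated. 1 gene that the rule names is not reported here. Results were recomputed with upper-quartile and RLE factors, without a filter, with 1 CPM in 4 libraries, and with DESeq2 1.42.0, limma 3.58.1 (voom), a replicate block, parts of F7, a fold of 1.2, a length correction, an adjusted p under 0.01, each library left out, other transcript lengths and, added after seeing the data, parts of the controls. No replicate pair agreed within sampling noise.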

Additional observations from a re-analysis of the deposited data

Results flagged for a closer look

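In 6 of 98 groups of libraries, over 49 genes, 1 library stood apart from the rest of its group by Dixon's criterion, which chance alone meets in about 5% of groups. Actg1 was highest in control replicate 2, at 373.7 CPM, where the other controls lay between 235.7 and 249.8. Mkl2 was lowest in F7 replicate 1, at 83.25 CPM, where the other F7 libraries reached 92.15 to 92.84. Tnnt2 was lowest in control replicate 3, at 0.4149 CPM, where the other controls held 1.206 to 1.517. Outside the 37 genes, Myl6b was lowest in F7 replicate 2 (8.743 CPM), Tmsb4x was highest in control replicate 5 (18.88 CPM) and Mylk was highest in control replicate 4 (55.63 CPM).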

How the results depend on the processing

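Of the 12 calls among the 37 genes, those of Flnc, Tagln2, Tnnt2 and Pdlim7 held in all 24 alternatives. Over the fold changes of the 28 tested genes, 600 of 669 recomputed values kept direction and side of the threshold, 40 lost the call, 23 gained it and 6 turned sign; for the named pathway genes it was 453, 45, 5 and 0 of 503. Those that turned were uncalled: Actc1 (0.022 with voom, 0.19 with F7 replicates 1 and 2, 0.12 against control replicates 3, 4 and 5, and between -0.29 and 0.097 with 1 library left out, the highest without F7 replicate 4), Acta1 (-0.30) and Tnnc1 (-0.070), both with F7 replicates 3 and 4. At an adjusted p under 0.01, 2894 genes in all were called, 9.25% of all tested genes higher and 10.4% lower. There 7 of the 28 were higher, and 15 pathway genes were higher and 9 lower. With F7 replicates 3 and 4 alone these were 2160 in all (6.40% higher, 7.60% lower), 4 of the 28 higher and 10 pathway genes higher. Against a fold of 1.2 they were 2161 in all (6.49% higher, 8.18% lower). There 4 of the 28 were higher and 0 lower, and 9 pathway genes were higher and 7 lower. Against control replicates 3, 4 and 5, 17 pathway genes were higher, beside 12.1% of all tested genes. With 1 library left out, the totals ran from 3543 to 5872, with 11.4 to 19.6% of all tested genes higher and 12.2 to 20.6% lower. In those fits the 37 gave 7 to 14 higher and 1 lower, and the pathway genes 18 to 31 higher and 14 to 18 lower. Actb was called in 8 alternatives, Myl6 was lost in 11 and Actn4 in 13. Without a filter the median log2 fold change of all genes was -0.11. Of 148 per-length levels, 47 moved by more than 1 SD with another transcript length, since the same CPM were then divided by another length. The replicate numbers did not pair the libraries: same-numbered libraries correlated at -0.05, 0.07, 0.21 and -0.05, and only F7 replicate 3 correlated best with its own number. With the number as a replicate block, 5149 genes were called, 10 of the 28 higher and 2 lower, and 29 pathway genes higher and 18 lower. In that fit 17.0% of all tested genes were higher and 17.9% lower. Srf was the second of the 28 to be lower (log2 fold change -0.64, adjusted p = 0.0159 in edgeR). Egr1 was also gained (log2 fold change -1.85, adjusted p = 0.0169 in edgeR). Depth limits the scarce genes most: F7 replicates 3 and 4 hold 6041556 and 6590712 counts, and Tnnc1 and Acta1 rest on 58 and 103 reads in F7, against 59 and 141 in control.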

Other observations

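The 37 genes together took 1.91, 1.93, 1.763 and 1.78% of all counts in F7 libraries 1 to 4, against 1.62, 1.69, 1.53, 1.59 and 1.757% in control libraries 1 to 5. Control replicate 5 thus lay just below F7 replicate 3. Much of each share was Actb, and without it control replicate 5 (0.815%) was above F7 replicates 3 and 4 (0.799% each). Ctgf (Ccn2), a matrix protein gene known to respond to TEAD and Srf cofactors and named here after its values were seen, had the highest log2 fold change of the pathway lists, 1.74, and was not called (adjusted p = 0.0647 in edgeR). It held 305, 293, 73.6 and 72.5 CPM in F7 libraries 1 to 4, against 34.1, 24.2, 49.96, 72.3 and 102 CPM in control libraries 1 to 5, so F7 replicates 1 and 2 were far above replicates 3 and 4, which lay within the control range.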
